A study of Mus musculus with 6 samples.

Results

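Snai1, Snai2, Zeb1, Zeb2, Twist1, Twist2, Prrx1, Ovol1, Ovol2 and Grhl2 encode transcription factors of the epithelial-mesenchymal transition (EMT), and all 10 were found by symbol among the 23478 genes of the count table. They were compared between muscle and epithelium sorted from mouse tracheas at embryonic day 13.5. Every embryo carried the genotype Bmp4 f/f; gamma SMA eGFP, and no Cre is named, so muscle and epithelium share the floxed alleles and the reporter. The muscle group holds 3 libraries of cells collected by GFP, and the epithelium group 3 libraries of cells collected by an APC-coupled antibody to Epcam, both after dissociation with TrypLE for 15 minutes. A GFP gate takes every cell in which the reporter is on, whatever its lineage. The labels do not say whether libraries of a group came from separate embryos, litters or pools, so the p-values measure only the spread between these libraries, which may be technical.

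In an EMT, cells give up apical-basal polarity and lateral junctions and take on a mesenchymal form that can move through matrix. Snail (Snai), Zeb and Twist proteins are known for repressing epithelial genes, above all the E-cadherin gene Cdh1, by binding short DNA elements called E-boxes. The Zeb genes in turn are kept low in epithelia by Ovol and Grainyhead-like (Grhl) factors and by microRNAs of the miR-200 family. In the embryonic airway the tube of epithelium lies inside mesenchyme that forms smooth muscle and cartilage, and the same factors are used there in development, outside disease. Here the first 7 genes are called the mesenchymal factors and Ovol1, Ovol2 and Grhl2 the epithelial factors, by these known roles.

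Of the 7 mesenchymal factors, 5 were higher in muscle (Snai1, Snai2, Zeb1, Zeb2 and Prrx1), with log2 fold changes of muscle over epithelium between 3.16 and 3.98. All 3 epithelial factors were higher in epithelium, with log2 fold changes between -6.90 and -4.26. Twist1 and Twist2 did not pass. Without epithelium replicate 3 the mesenchymal factors that passed numbered 3, as Zeb1 and Prrx1 then missed the threshold. The test was edgeR's two-sided quasi-likelihood test with Benjamini-Hochberg adjustment over 19375 tested genes, and a gene passed at an adjusted p under 0.05. All 10 genes passed the filter on low counts. Over all tested genes 10.7% passed, 6.58% as higher in muscle and 4.11% as higher in epithelium. In 9 of the 10 genes the values of the groups did not overlap, which held for 26.9% of all tested genes. Levels are given as CPM, the counts relative to the library total after TMM scaling (the trimmed mean of M-values method), with SD and n = 3 per group throughout. These are bulk samples, in which fewer cells that express a gene and less RNA per cell cannot be told apart.

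**Figure D1:**
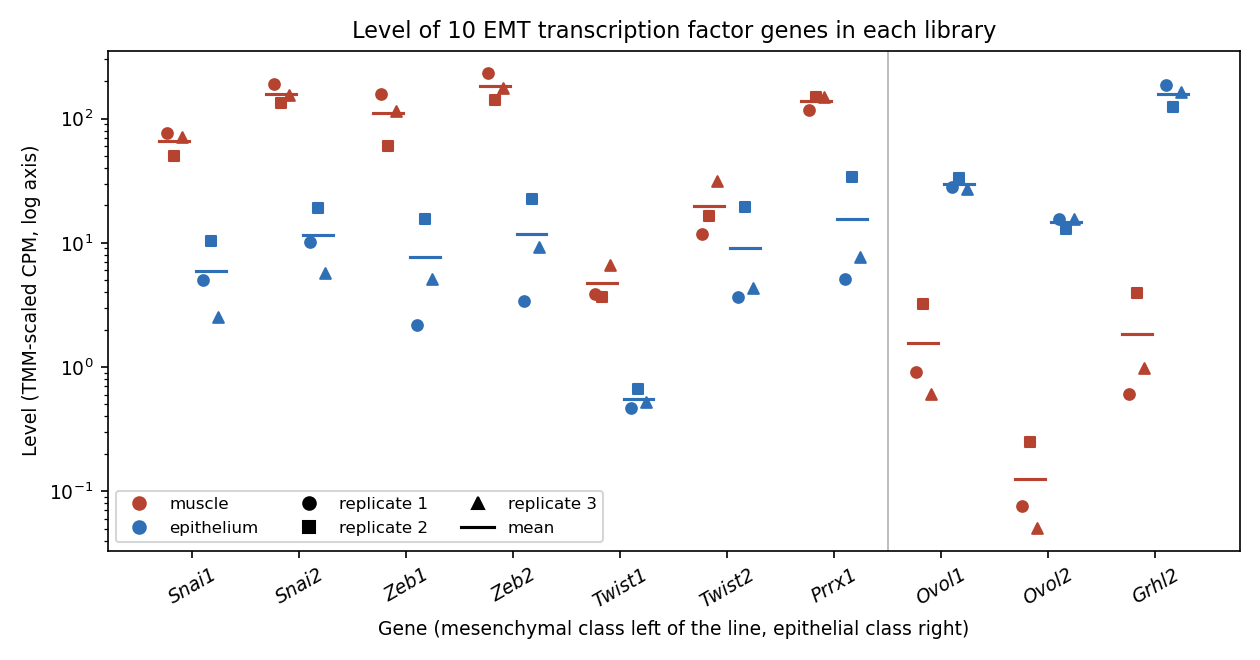
Level of each EMT factor gene in every library, in TMM-scaled CPM on a log axis; red is muscle, blue is epithelium, symbols give the replicate number and bars the group means. Snai1, Snai2, Zeb1, Zeb2, Twist1 and Prrx1 lie higher in each muscle library than in any epithelium library, Twist2 overlaps, and Ovol1, Ovol2 and Grhl2 lie higher in each epithelium library.

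Library totals ranged from 17686605 to 49352790 counts in muscle and from 11847432 to 54848820 in epithelium, and the replicates numbered 2 were the shallowest of each group. Their file headers also carry another identifier number than those of the other 4 libraries. Receptor genes of olfactory and vomeronasal neurons, 1456 in number, were used as a gauge of counts at silent genes: their mean was 0.0310, 0.535 and 0.0207 CPM in muscle replicates 1 to 3 and 0.0051, 0.988 and 0.414 CPM in epithelium replicates 1 to 3. In the marker lists 10 of 10 smooth muscle markers were higher in muscle, beside 6.58% of all tested genes. Likewise 10 of 10 airway epithelium markers were higher in epithelium, beside 4.11%. These lists hold Actg2 and Epcam, the genes used for the sort, and were chosen with earlier results of these data known. The counts are thus no independent check of the labels. Muscle replicate 2 had less of the gene behind the reporter, with Actg2 at 2438, 403 and 2786 CPM in muscle replicates 1 to 3. Markers listed for other cells were present too. Of 10 cartilage progenitor markers 3 were higher in muscle (summed level 970 to 1627 CPM in muscle and 345 to 659 in epithelium), and of 10 skeletal muscle markers 3 were (337 to 1684 and 13.0 to 52.6 CPM). The latter were Actc1, Des and Tnnt1, with muscle means of 624, 439 and 21.1 CPM. Of both lists 30% passed, beside 10.7% of all tested genes. Des is also on the smooth muscle list, so the summed level of the skeletal muscle list does not by itself show skeletal muscle cells. The median log2 fold change of that list was 3.78. In edgeR 5 of its genes were higher in muscle at an unadjusted p under 0.05, while DESeq2 called 4 and limma-voom 2. Whether skeletal muscle cells were present was not tested. No endothelial or immune marker of 10 each passed with edgeR (1 and 0 at an unadjusted p under 0.05, and 2 and 0 passed with limma-voom, 0 and 0 with DESeq2), and of 9 tested neural crest and glia markers 1 passed, Erbb3, higher in epithelium. For the neural crest and glia list that is 11.1%, beside 10.7% of all tested genes, so these counts do not set the lists apart. Of 9 tested mesothelial markers 1 passed in each direction (22.2% of the list), Aldh1a2 higher in muscle and Krt19 higher in epithelium. Krt19 is also on the airway epithelium list. Of 6 tested erythroid markers none passed with edgeR, DESeq2 or limma-voom, and 0 had an unadjusted p under 0.05, while the globin genes Hba-a1, Hba-a2, Hbb-bt and Hbb-bs were listed at 0 in every library.

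Snai1 (chr2:167538195-167542814, plus strand, GRCm38) and Snai2 (chr16:14705852-14709385, plus strand), known as Snail and Slug, encode zinc finger repressors that recognise the E-box CACCTG. Snai1 had 76.1, 50.1 and 70.7 CPM in muscle replicates 1 to 3 and 5.0, 10.4 and 2.52 CPM in epithelium replicates 1 to 3. Each muscle library was above each epithelium library, and the means were 65.6 ± 13.7 and 5.98 ± 4.04 CPM. The log2 fold change was 3.48 ± 0.49 (SE; adjusted p = 0.0026). Snai2 had 189, 133 and 156 CPM in muscle against 10.2, 18.98 and 5.75 CPM in epithelium, or 159 ± 27.9 and 11.6 ± 6.74 CPM. These groups were apart as well, and in both genes epithelium replicate 2 was the highest epithelium library and replicate 3 the lowest. The log2 fold change of Snai2 was 3.79 ± 0.44 (SE; adjusted p = 0.0011). The 250 bases upstream of the RefSeq start of Snai1 (chr2:167537945-167538194, plus strand, GRCm38.p6) are shown because they hold the E-box that Snail proteins read, in capitals, 126 bases before the start. Windows were found for 6 of the 10 genes (Snai1, Zeb2, Twist1, Twist2, Prrx1 and Ovol2), and only that of Snai1 held this element. Of all genes with a window 20% held it, so the count does not set Snai1 or these genes apart.
Snai1: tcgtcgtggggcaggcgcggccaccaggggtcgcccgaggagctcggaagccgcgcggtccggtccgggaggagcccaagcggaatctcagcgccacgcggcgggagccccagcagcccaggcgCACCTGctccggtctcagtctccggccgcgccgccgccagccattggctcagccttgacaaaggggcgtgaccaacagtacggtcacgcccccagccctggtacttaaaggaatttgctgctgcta

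Zeb1 and Zeb2 (chr2:44983632-45117395, minus strand) encode large repressors with a zinc finger cluster at each end, which bind paired E-boxes. Zeb1 had 159, 59.7 and 116 CPM in muscle replicates 1 to 3 and 2.17, 15.6 and 5.11 CPM in epithelium replicates 1 to 3. The groups did not overlap, but they came closest in the replicates numbered 2, the lowest muscle and the highest epithelium library. Means were 111 ± 49.7 and 7.62 ± 7.04 CPM, and the log2 fold change was 3.90 ± 0.71 (SE; adjusted p = 0.0088). Zeb2 had 231, 142 and 175 CPM in muscle and 3.38, 22.5 and 9.24 CPM in epithelium. Its libraries stood in the same order as those of Zeb1 within both groups, and its groups did not overlap. Means were 182.9 ± 44.8 and 11.7 ± 9.81 CPM, and the log2 fold change was 3.98 ± 0.63 (SE; adjusted p = 0.0042). Zeb1 passed in 12 of 14 alternative fits and missed the threshold without epithelium replicate 3 (3.56 ± 0.85, adjusted p = 0.058), while Zeb2 passed in all 14. The antisense gene Zeb2os, which shares 3.27% of the exon bases of Zeb2, had 2.28, 4.19 and 2.68 CPM in muscle and 0.0558, 3.94 and 0.789 CPM in epithelium, and its groups overlapped.

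Twist1 (chr12:33957671-33959829, plus strand) and Twist2 (chr1:91801461-91848028, plus strand) encode basic helix-loop-helix (bHLH) factors of mesoderm and mesenchyme. Twist1 was at a low level, with 3.84, 3.64 and 6.65 CPM in muscle and 0.465, 0.668 and 0.526 CPM in epithelium. Its groups did not overlap, and the difference did not pass. The means were 4.71 ± 1.68 and 0.553 ± 0.105 CPM and the log2 fold change 3.09 ± 1.10 (SE; adjusted p = 0.13). Behind these levels stood 101, 73 and 263 counts in muscle and 25, 10 and 14 counts in epithelium, where a receptor gene of the gauge had a mean of 0.273, 14.8 and 11.02 counts. Epithelium replicates 2 and 3 thus gave Twist1 about as many counts as a receptor gene, and replicate 1 gave it more. DESeq2 called Twist1 higher in muscle (2.99 ± 0.72, adjusted p = 0.00034), and the other 13 alternatives did not.

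Twist2 had 11.7, 16.5 and 31.5 CPM in muscle and 3.68, 19.3 and 4.32 CPM in epithelium. Epithelium replicate 2 lay above muscle replicates 1 and 2, so the groups overlapped. The means were 19.9 ± 10.3 and 9.10 ± 8.85 CPM and the log2 fold change 1.14 ± 0.67 (SE; adjusted p = 0.41). Without epithelium replicate 2 it was 2.27 ± 0.49, and Twist2 passed (adjusted p = 0.021). Of the exon bases of Twist2, 46.5% are shared with the antisense gene Gm29100, and in libraries that keep no strand the reads of the pair cannot be told apart.

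Prrx1 (chr1:163245119-163313710, minus strand) encodes a paired-related homeodomain factor of limb, craniofacial and vascular mesenchyme that can drive an EMT. It had 117, 149 and 149.9 CPM in muscle replicates 1 to 3 and 5.11, 34.2 and 7.74 CPM in epithelium replicates 1 to 3. The groups did not overlap, and epithelium replicate 2 stood well above the other epithelium libraries. The means were 139 ± 18.9 and 15.7 ± 16.1 CPM and the log2 fold change 3.16 ± 0.66 (SE; adjusted p = 0.017). This call was less firm than those of Snai1, Snai2 and Zeb2: it ended in 4 of the 6 fits that left out a library (adjusted p between 0.052 and 0.074 without muscle replicates 1, 2 or 3 or epithelium replicate 3).

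Epithelium replicate 2 was the highest epithelium library for all 7 mesenchymal factors. It was also the highest for 30 of the 40 genes of the mesenchymal state described further on, while replicate 1 was the highest for 6, Vim and Fn1 among them, and replicate 3 for 4, Cdh2 among them. Among the 30, Col1a1, a chain of type I collagen, had 83.5, 570 and 54.9 CPM in epithelium replicates 1 to 3, Lum, a matrix proteoglycan, had 15.1, 100 and 21.0 CPM, and Pdgfra, a receptor of mesenchymal cells, had 15.1, 67.6 and 11.4 CPM. The genes named here were chosen after their values were seen, and the part of this RNA in the levels of the EMT factors was not tested. Without that library the level of Snai1 in epithelium, as a percent of its muscle mean, was 5.72% in place of 9.11%, that of Snai2 5.0% in place of 7.30%, that of Zeb1 3.27% in place of 6.84%, that of Zeb2 3.45% in place of 6.41%, that of Prrx1 4.63% in place of 11.3% and that of Twist2 20.1% in place of 45.7%. Twist1 moved less, to 10.5% from 11.7%.

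Ovol1 (chr19:5549136-5560646, minus strand) and Ovol2 (chr2:144305175-144332146, minus strand) encode zinc finger repressors that hold the epithelial state, with the Zeb genes among their known targets. Ovol1 had 0.912, 3.20 and 0.607 CPM in muscle replicates 1 to 3 and 28.2, 33.4 and 27.0 CPM in epithelium replicates 1 to 3. All epithelium libraries lay far above all muscle libraries, and muscle replicate 2 was the highest of its group. The means were 1.57 ± 1.41 and 29.5 ± 3.42 CPM and the log2 fold change -4.26 ± 0.62 (SE; adjusted p = 0.0030). Ovol2 had 2, 5 and 2 counts in muscle and 832, 192 and 413 counts in epithelium, or 0.0760, 0.250 and 0.0506 CPM against 15.5, 12.8 and 15.5 CPM. In muscle it was at or near the floor of 3 counts, and muscle replicate 2, with 5 counts, was below the mean of 10.7 counts of a receptor gene there. The fitted log2 fold change was -6.90 ± 0.79 (SE; adjusted p = 0.0010). As so few counts stood behind the muscle level, the ratio of the summed counts was taken too, scaled by library size. Epithelium was 143.8-fold higher, with a 95% exact interval of 75.5 to 315. That interval covers counting error only and takes each count as an independent event. Most small counts were even numbers, so it may be too narrow. Opposite-strand genes share exon bases with both, Gm31166 19.8% of those of Ovol1 and 1700108N11Rik 17% of those of Ovol2.

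Grhl2 (chr15:37233036-37363569, plus strand) encodes a Grainyhead-like factor that activates junction genes such as Cdh1 and Cldn4 and opposes Zeb1. It had 0.608, 3.94 and 0.986 CPM in muscle replicates 1 to 3 against 187, 125 and 163 CPM in epithelium replicates 1 to 3. The groups were far apart, with muscle replicate 2 the highest muscle and epithelium replicate 2 the lowest epithelium library. Means were 1.85 ± 1.83 and 158 ± 31.1 CPM, and the log2 fold change was -6.47 ± 0.69 (SE; adjusted p = 0.00078). Ovol1, Ovol2 and Grhl2 passed in all 14 alternative fits.

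On a per-length scale (CPM per kilobase of the longest principal transcript in GENCODE M21, an annotation of GRCm38) levels can be set in order across genes. In muscle the order was Snai2 (78.8 ± 13.8), Snai1 (40.5 ± 8.46), Prrx1 (27.99 ± 3.81), Zeb2 (20.05 ± 4.91), Zeb1 (19.2 ± 8.56), Twist2 (7.89 ± 4.09), Twist1 (2.89 ± 1.03), Ovol1 (0.529 ± 0.476), Grhl2 (0.373 ± 0.369) and Ovol2 (0.0815 ± 0.0704). The library values of Snai2 did not overlap those of Snai1, nor those of Snai1 the values of Prrx1. Neighbours from Prrx1 down to Twist2 overlapped, and so did the 3 epithelial factors at the bottom. In epithelium Grhl2 stood alone at the top with 32.0 ± 6.28 CPM per kilobase. Below it every neighbouring pair overlapped: Ovol1 (9.94 ± 1.15), Ovol2 (9.49 ± 0.997), Snai2 (5.76 ± 3.33), Snai1 (3.69 ± 2.50), Twist2 (3.61 ± 3.50), Prrx1 (3.16 ± 3.24), Zeb1 (1.31 ± 1.21), Zeb2 (1.28 ± 1.07) and Twist1 (0.340 ± 0.0642). As group means, Snai2 was the highest mesenchymal factor per length in both populations, and Snai1 came next. In epithelium Snai1 was not set apart from Twist2 and Prrx1: its highest library (6.43) lay below theirs (7.65 and 6.90). Which isoforms the cells used is not known from gene counts.

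Zeb and Grhl2 are known as opposed regulators, so their per-length levels were set against each other within each library. The summed level of Zeb1 and Zeb2 over that of Grhl2 was 429, 32.5 and 196 in muscle replicates 1 to 3. In epithelium replicates 1 to 3 the same ratio was 0.0198, 0.204 and 0.0574. The populations were apart by more than their spread, and the replicates numbered 2 were the nearest to each other from both sides. The paralogues kept like proportions within the Snail and Zeb families. Snai2 made up 66.5%, 68.1% and 63.9% of the summed Snai1 and Snai2 level per length in muscle and 62.0%, 59.4% and 64.7% in epithelium. Zeb2 made up 48.1%, 60.3% and 49.1% of the Zeb level in muscle and 49.7%, 47.9% and 53.5% in epithelium, and the groups overlapped in both families. The Twist share differed: Twist2 made up 66.4%, 74.5% and 75.4% of the Twist level in muscle and 83.6%, 94.9% and 84.1% in epithelium. These groups did not overlap, though few counts stood behind Twist1 in epithelium. Ovol1 made up 86.1%, 86.9% and 86.1% of the Ovol level in muscle, where Ovol2 was near the floor, and 48.6%, 57.4% and 47.4% in epithelium.

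The separation was not equally deep for all factors, as seen in the level of each gene in the population where it was lower. In percent of its muscle mean, epithelium replicates 1 to 3 held 7.62%, 15.9% and 3.83% for Snai1, 6.38%, 11.9% and 3.61% for Snai2, 1.95%, 13.99% and 4.59% for Zeb1 and 1.85%, 12.3% and 5.05% for Zeb2. Twist1 gave 9.86%, 14.2% and 11.2%, Twist2 18.5%, 97.0% and 21.7% and Prrx1 3.69%, 24.6% and 5.58%. Conversely, muscle replicates 1 to 3 held 3.09%, 10.8% and 2.05% of the epithelium mean of Ovol1, 0.521%, 1.71% and 0.346% of that of Ovol2 and 0.384%, 2.49% and 0.623% of that of Grhl2. Without muscle replicate 2 the means of these 3 genes were 2.57%, 0.433% and 0.503%, in place of 5.32%, 0.859% and 1.17%. For comparison, the median over the 10 smooth muscle markers was 0.932%, 1.99% and 0.723% in epithelium replicates 1 to 3, and the median over the 10 airway epithelium markers was 0.221%, 0.738% and 0.687% in muscle replicates 1 to 3. The means of single smooth muscle markers in epithelium ran from 0.116% for Actg2 to 15.0% for Smtn. The 4 Snail and Zeb genes thus lay above the median of the smooth muscle markers in every epithelium library and, as means, within the range of single markers. Over the 1274 genes higher in muscle the median level left in epithelium was 26.4%, and over the 797 higher in epithelium the median left in muscle was 21.7%. Carry-over of cells or free RNA in the sort was not tested as a part of these levels.

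**Figure D2:**
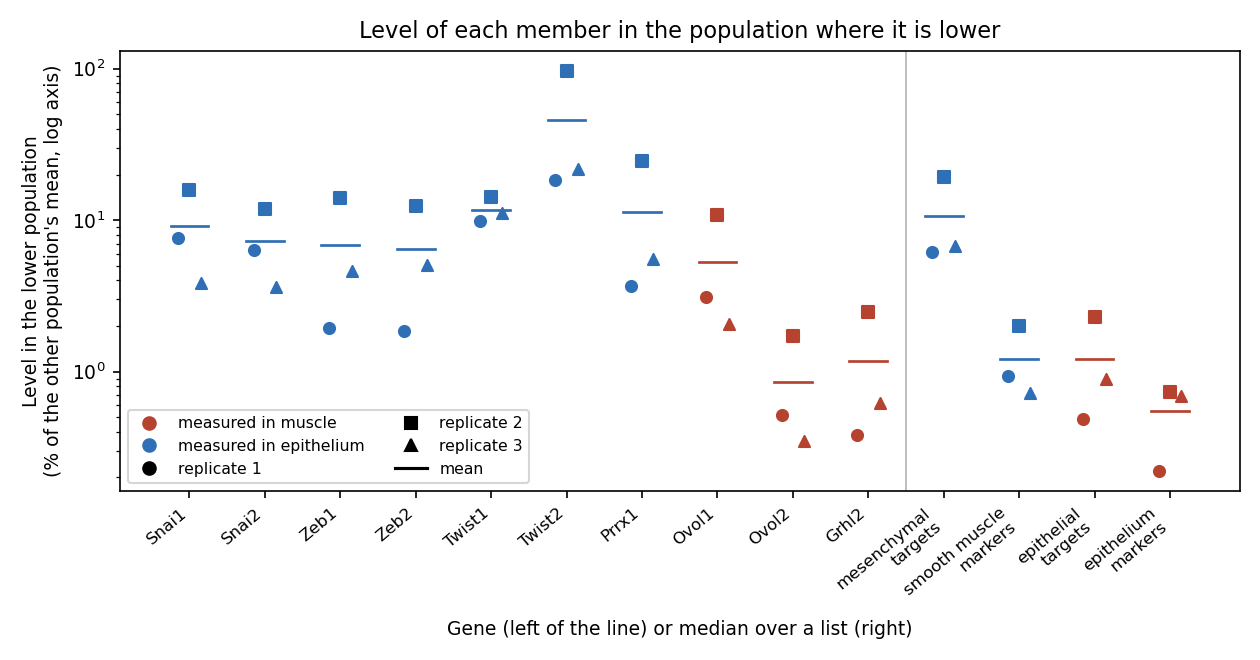
Level of each factor in the population where it was lower, in percent of the other population's mean on a log axis, with the medians of 4 gene lists at the right; blue is measured in epithelium, red in muscle, symbols give the replicate and bars the mean. Grhl2 and Ovol2 lie near 1% in muscle (1.17% and 0.859% as means), while the mesenchymal factors lie between 6.41% (Zeb2) and 45.7% (Twist2) in epithelium; replicate 2 is the highest point of every factor, and without it these means are 0.503%, 0.433%, 3.45% and 20.1%.

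Relatives of the factors showed both directions. Of 17 tested genes from the same or nearby families, 3 were higher in muscle, 2 were higher in epithelium and 12 did not pass, with a median log2 fold change of 0.97 beside -0.10 over all tested genes. In all 29.4% of the list passed, beside 10.7% of all tested genes. Tcf21, a bHLH factor of visceral mesenchyme (3.37 ± 0.55, adjusted p = 0.0049), Prrx2, the paralogue of Prrx1 (2.92 ± 0.66, adjusted p = 0.022), and Foxc2, a forkhead factor of mesenchyme and vessels (2.91 ± 0.71, adjusted p = 0.030), were higher in muscle. Snai3 went the other way from Snai1 and Snai2. It had 0.0760, 0.2995 and 0.253 CPM in muscle against 8.23, 6.95 and 8.79 CPM in epithelium, a log2 fold change of -5.23 ± 0.97 (SE; adjusted p = 0.0090). Its summed counts were 18 in muscle and 781 in epithelium, a ratio of 39.1 after scaling (95% exact interval 24.6 to 66.3, counting error only). This interval, too, takes each count as independent and may be too narrow. Grhl1 followed Grhl2 (-4.46 ± 0.84, adjusted p = 0.010). Grhl3, the remaining Grainyhead-like gene, had 35.3, 43.5 and 47.0 CPM in muscle and 39.5, 35.1 and 18.2 CPM in epithelium, and the groups overlapped (0.44 ± 0.31, adjusted p = 0.56). The genes higher in muscle numbered 1 without muscle replicate 1 or 3 or epithelium replicate 3, and those higher in epithelium 1 without muscle replicate 1 or epithelium replicate 3.

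Twist proteins act as dimers with E proteins, the products of Tcf3, Tcf4 and Tcf12, while Id proteins bind E proteins and keep them from DNA. Of these 7 genes 2 passed in each direction and 3 did not pass, with a median log2 fold change of 0.24. The share that passed was 57.1%, beside 10.7% of all tested genes. Tcf12 had 509, 200 and 397 CPM in muscle and 151, 140 and 125 CPM in epithelium (1.41 ± 0.34, adjusted p = 0.030). Tcf4 had 119, 130 and 158 CPM in muscle against 65.1, 73.6 and 54.4 CPM (1.08 ± 0.24, adjusted p = 0.020). Tcf3 was the reverse, with 68.8, 73.5 and 179 CPM in muscle and 557, 281 and 307 CPM in epithelium (-1.83 ± 0.44, adjusted p = 0.029). Among the Id genes Id1 was higher in epithelium, at 397, 225 and 459 CPM against 121, 44.5 and 134 CPM in muscle (-1.85 ± 0.44, adjusted p = 0.028), and Id2, Id3 and Id4 did not pass. Groups of the 4 named genes that passed did not overlap. The calls were near the threshold: those in muscle numbered 1 without muscle replicate 1 or epithelium replicate 1 or 2 and 0 without either replicate 3, and those in epithelium 0 without muscle replicate 1 and 1 without muscle replicate 2 or epithelium replicate 1 or 3.

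**Figure D3:**
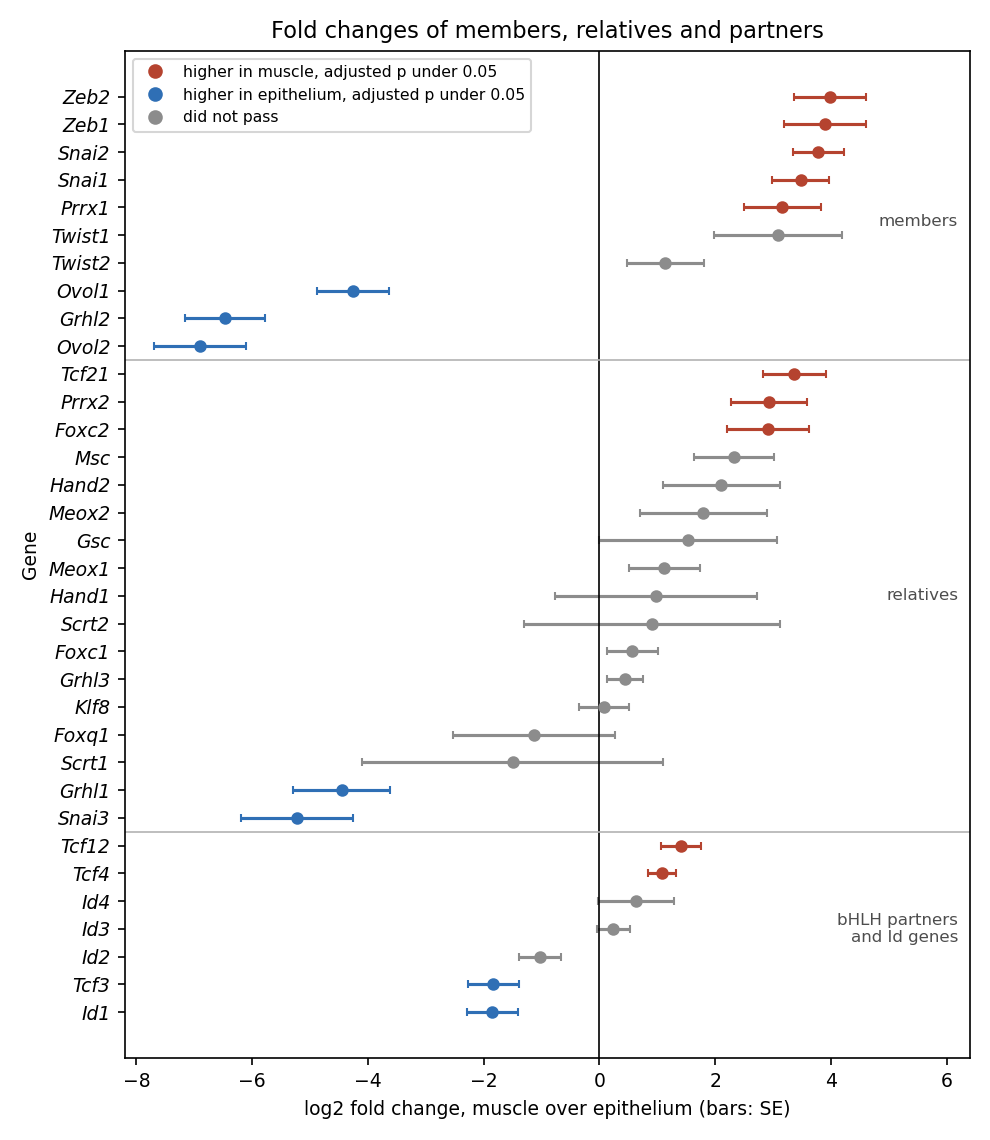
Log2 fold change of muscle over epithelium with SE bars for the EMT factors, their relatives and the bHLH partners and Id genes; red passed as higher in muscle, blue as higher in epithelium, grey did not pass. The factors split by class, from 3.98 for Zeb2 to -6.90 for Ovol2, and Snai3 (-5.23) lies opposite to Snai1 and Snai2.

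The repressors work through co-repressors and chromatin enzymes. Of 19 co-repressor and chromatin genes none was higher in muscle with edgeR, DESeq2 or limma-voom (0 at an unadjusted p under 0.05) and 1 was higher in epithelium, with a median log2 fold change of -0.16. That is 5.26% of the list, beside 10.7% of all tested genes, and DESeq2 and limma-voom called 2 each, so the count does not set the list apart. The gene that passed was Ajuba, which encodes a LIM protein that binds Snail (-1.46 ± 0.36, adjusted p = 0.033). No gene of the list passed without muscle replicate 1 or 2 or epithelium replicate 1 or 3. Ctbp1, a co-repressor bound by Zeb proteins, had 28.1, 35.4 and 58.4 CPM in muscle and 52.7, 42.6 and 31.0 CPM in epithelium, and its groups overlapped. Of 12 genes for kinases, ubiquitin ligases and other regulators of Snail protein stability 1 passed. That is 8.33% of the list, beside 10.7% of all tested genes, so this count does not set the list apart either. The gene was Pak1, a kinase that phosphorylates Snail, higher in epithelium with 98.5, 68.8 and 79.7 CPM against 26.9, 19.1 and 33.1 CPM in muscle (-1.64 ± 0.28, adjusted p = 0.0059). Protein amounts of the factors were not measured.

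TGF-beta is the best known inducer of the mesenchymal factors. Of 18 genes of a list that holds its ligands, receptors and relays, activin genes and the nuclear factors Ets1 and Hmga2, 8 were higher in muscle, 1 was higher in epithelium and 9 did not pass, with a median log2 fold change of 1.08. Thus 50% of the list passed, beside 10.7% of all tested genes. Inhba, the activin A subunit gene (3.79 ± 0.66, adjusted p = 0.0073), Tgfb3, a TGF-beta ligand gene (3.55 ± 0.39, adjusted p = 0.00085), and Ets1, a factor that acts on the Zeb genes (2.68 ± 0.38, adjusted p = 0.0025), had the largest differences among those higher in muscle. Tgfb3 had 578, 437 and 692 CPM in muscle and 34.3, 75.1 and 36.4 CPM in epithelium. Smad3, a relay of the pathway, was higher in epithelium with 217, 118 and 110 CPM against 44.9, 25.9 and 65.9 CPM in muscle (-1.70 ± 0.40, adjusted p = 0.026). Without epithelium replicate 3 the genes higher in muscle numbered 5, and without muscle replicate 1 or epithelium replicate 1 Smad3 did not pass.

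MicroRNAs of the miR-200 family silence Zeb1 and Zeb2. Of 7 loci of miR-200 family members, Mir203 and Mir205 in the table none passed the filter on low counts. Their summed level was at most 0.0998 CPM in muscle and between 0.186 and 1.00 CPM in epithelium. Mature microRNAs are too short for libraries of this kind, so these values do not measure them.

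Known targets of the factors were examined in 2 lists. Of 47 genes of junctions, polarity and epithelial identity that the mesenchymal factors are known to repress or the epithelial factors to activate, 38 were higher in epithelium, none was higher in muscle and 9 did not pass, with a median log2 fold change of -5.45. In all 80.9% of this list passed, beside 10.7% of all tested genes. DESeq2 and limma-voom also called none higher in muscle, where edgeR gave 0 at an unadjusted p under 0.05. Epcam, an adhesion molecule and the sort marker itself (-8.62 ± 0.52, adjusted p = 9.6e-05), Cldn6, a claudin of embryonic epithelia (-8.46 ± 0.63, adjusted p = 0.00015), and Crb3, an apical polarity protein (-7.99 ± 0.56, adjusted p = 0.00011), had the largest differences. Cdh1, the classic target of Snail and Zeb, had 2.28, 6.34 and 2.02 CPM in muscle and 734, 631 and 687 CPM in epithelium (-7.61 ± 0.54, adjusted p = 0.00012). The 2 groups were far apart in all 4 genes. As the epithelium was collected by Epcam, high epithelial genes there follow from the sort and are not independent of it.

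Of 40 genes of the mesenchymal state 27 were higher in muscle, none was higher in epithelium and 13 did not pass, with a median log2 fold change of 2.80. The share that passed was 67.5%, beside 10.7% of all tested genes. In the direction of epithelium edgeR gave 0 at an unadjusted p under 0.05, and neither DESeq2 nor limma-voom called any. Tagln, an actin-binding protein of smooth muscle (6.15 ± 0.59, adjusted p = 0.00049), Tnc, a matrix glycoprotein (5.04 ± 0.52, adjusted p = 0.00068), and Pdgfrb, a receptor of mural cells (5.0 ± 0.55, adjusted p = 0.00085), led the list. Tagln is also on the smooth muscle marker list. As the muscle was collected by a smooth muscle actin reporter, high levels of such genes in muscle are not independent of the sort. Vim, the intermediate filament gene used most often as an EMT marker, had 644, 614 and 760 CPM in muscle and 119, 80.8 and 78.3 CPM in epithelium (2.86 ± 0.27, adjusted p = 0.00050). Its groups did not overlap, and epithelium kept a clear level. Cdh2, which encodes N-cadherin and stands for the cadherin switch in an EMT, had 153, 92.4 and 119 CPM in muscle and 60.1, 115 and 134 CPM in epithelium. Its groups overlapped and the log2 fold change was 0.24 ± 0.34 (SE; adjusted p = 0.87). The gene was named after its value was seen. Across the 27 genes higher in muscle the median level left in epithelium was 12.2% of the muscle mean, and across the 38 genes higher in epithelium the median left in muscle was 1.28%. By library these medians were 6.13%, 19.2% and 6.78% in epithelium replicates 1 to 3 and 0.484%, 2.28% and 0.891% in muscle replicates 1 to 3. Without the replicate numbered 2, a setting chosen after seeing the data, they were 6.80% in epithelium and 0.618% in muscle.

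**Figure D4:**
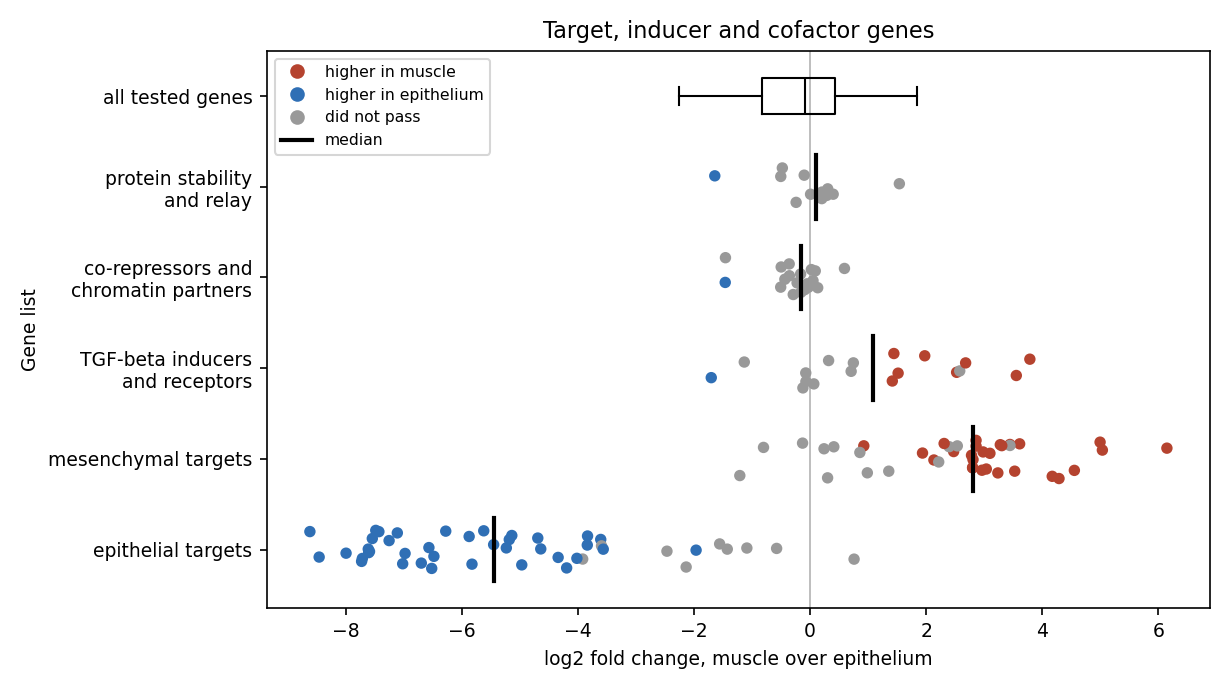
Log2 fold change of muscle over epithelium for each tested gene of 5 lists (points; red and blue passed as higher in muscle or epithelium, grey did not pass), with the list median as a bar; the box for all tested genes shows the median and quartiles, and its whiskers the central 90% of genes. Epithelial targets have a median of -5.45, mesenchymal targets of 2.80, and co-repressors of -0.16, beside -0.10 over all tested genes.

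The promoters of the epithelial targets were read for the E-box CACCTG on both strands, in RefSeq windows from 250 bases before to 50 bases after the start (GRCm38.p6, the first window of each gene). Of 30 epithelial targets with a window 23 held it (76.7%), and 11 held it at least 2 times (36.7%). Among 20 mesenchymal targets with a window 2 held it (10%), and among all 27025 genes with a window 5413 did (20%, and 2.85% at least 2 times). Over all tested genes, with the list genes not removed, 210 of 608 higher in epithelium held it (34.5%). It was in 132 of 944 genes higher in muscle (14%) and 2566 of 13531 that did not pass (19%). These shares are thus not separate from the lists. At a log2 fold of at least 4 it was 59 of 112 genes higher in epithelium (52.7%) and 16 of 76 higher in muscle (21.1%), so the strongly muscle-high genes were not below those that did not pass. A related E-box, CAGCTG, showed no such spread between the lists: 16.7% of epithelial targets, 20% of mesenchymal targets and 16.1% of all genes held it. Over all tested genes, 16.8% of those higher in epithelium, 19.5% of those higher in muscle and 15.9% that did not pass held CAGCTG. At a log2 fold of at least 4 it was 17% in epithelium and 23.7% in muscle. The mean GC content of the windows was 62.2% for epithelial targets, 56.3% for mesenchymal targets and 53.6% for all genes, and 63.0%, 61.3% and 57.8% for genes higher in epithelium, higher in muscle and not passing; its part in these shares was not tested. Windows were found for 63.8% of the epithelial targets and 50% of the mesenchymal targets, so the search is void as a check of the whole lists. Cdh1 had no window, so its promoter was not searched. Some list genes are known as targets through such elements, which makes the list's share no independent evidence. The 250 bases upstream of Epcam (chr17:87635729-87635978), Cldn6 (chr17:23679115-23679364) and Crb3 (chr17:57061951-57062200), all on the plus strand, are shown as the 3 targets with the largest differences. Capitals mark CACCTG or its reverse complement CAGGTG, which begins 187 and 19 bases before the start in Epcam, 93 bases before it in Cldn6 and 118, 63 and 7 bases before it in Crb3.
Epcam: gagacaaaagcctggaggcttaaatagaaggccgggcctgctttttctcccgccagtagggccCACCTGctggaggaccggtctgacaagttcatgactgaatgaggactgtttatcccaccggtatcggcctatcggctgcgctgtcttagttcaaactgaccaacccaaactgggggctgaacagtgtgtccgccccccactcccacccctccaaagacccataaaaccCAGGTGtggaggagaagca
Cldn6: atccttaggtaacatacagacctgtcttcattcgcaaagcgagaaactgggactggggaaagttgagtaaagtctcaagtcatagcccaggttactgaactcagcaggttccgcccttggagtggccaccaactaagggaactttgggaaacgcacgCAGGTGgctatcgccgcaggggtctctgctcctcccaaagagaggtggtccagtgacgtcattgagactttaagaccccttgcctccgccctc
Crb3: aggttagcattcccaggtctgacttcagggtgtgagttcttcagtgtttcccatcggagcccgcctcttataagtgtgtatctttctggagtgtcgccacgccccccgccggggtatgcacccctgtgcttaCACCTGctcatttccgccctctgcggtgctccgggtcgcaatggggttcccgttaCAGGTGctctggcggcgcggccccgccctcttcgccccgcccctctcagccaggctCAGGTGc

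Not every target high in epithelium held the element. Cldn7, Spint1, Cgn and Lamb3 were higher in epithelium and had none in the window, while Krt5 and Vdr held it and did not pass. Tmem30b, Lsr, Ap1m2 and Crb3 held the most, 4 each. The Grainyhead-like motif AACCGGTT was in no window of the 30 epithelial targets and in 0.152% of all genes, and the wider form AACNNGTT, which includes it, was in 6.67% and 4.19%. The Ovol core CCGTTA was in 3.33% of the epithelial targets (Crb3), in 5% of the mesenchymal targets (Tnc) and in 2.68% of all genes. No window of the EMT factors held any of these 3 motifs or CAGCTG. A match is a string of letters in a window and does not show binding.

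**Figure D5:**
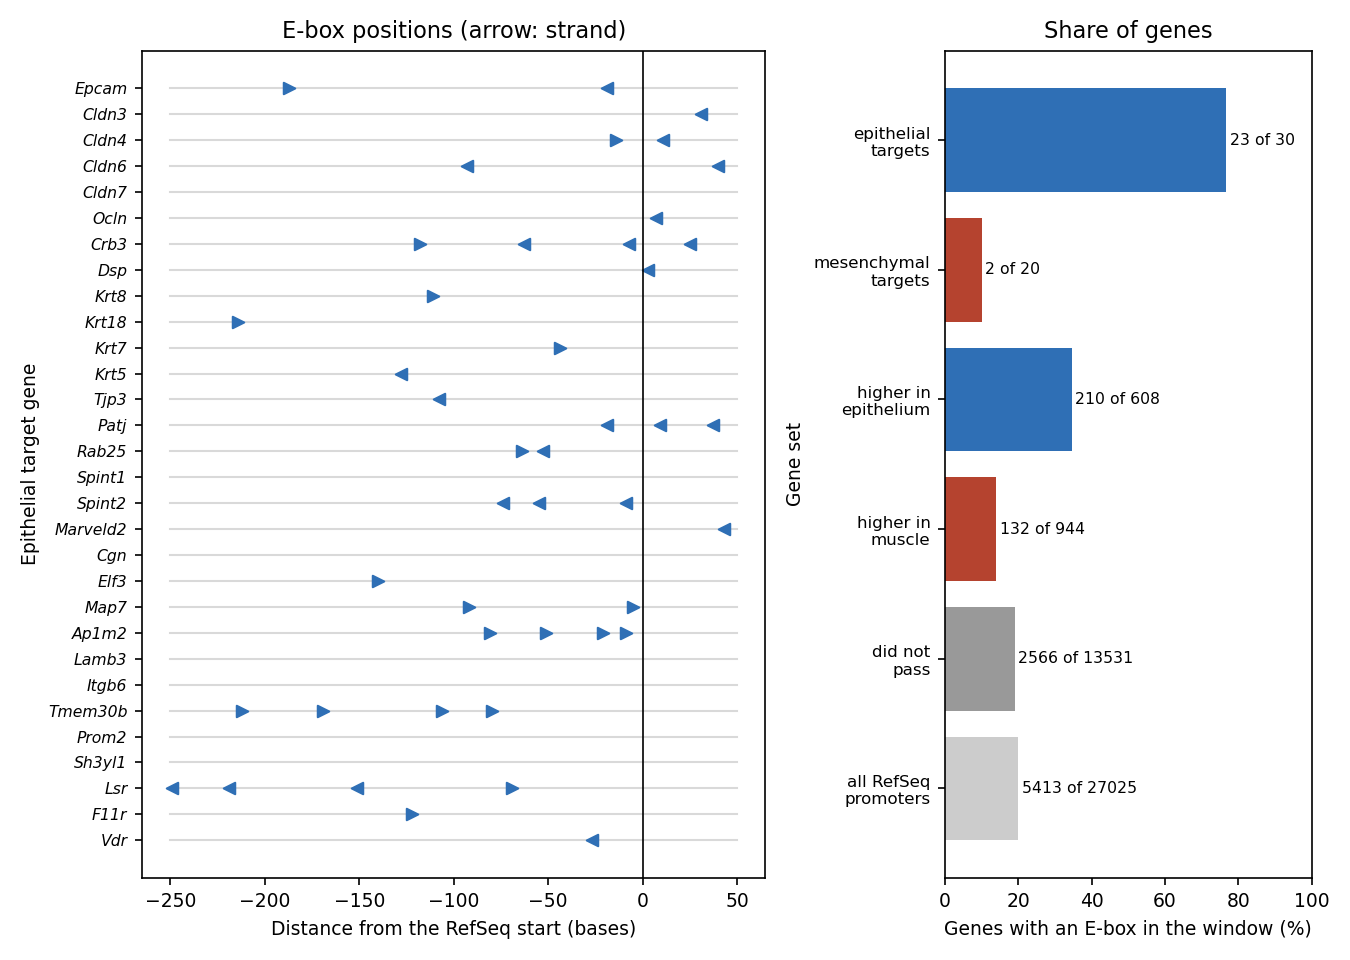
Left, positions of the E-box in the window of each of 30 epithelial target genes, as distance from the RefSeq start in bases, with arrows for the strand; right, percent of genes in each set with at least 1 E-box. Among genes with a window, the element is in 76.7% of epithelial targets, 10% of mesenchymal targets and 20% of all genes.

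The genes with the library profile most like Zeb2 and Grhl2, the mesenchymal and the epithelial factor with the highest mean CPM, were sought among 9370 genes by the root mean square distance of centred log2 CPM over the 6 libraries. Nearest to Zeb2 were Cnrip1 (distance 0.20), which encodes a protein that binds cannabinoid receptors, Adam19 (0.23), a membrane metalloprotease gene, and Zeb1 itself (0.26), while the median distance over all candidates was 2.28. Nearest to Grhl2 were St14 (0.19), the gene of the epithelial serine protease matriptase, Gpr56 (0.24), an adhesion receptor gene, and Eps8l2 (0.28), an actin regulator gene, against a median of 3.60. Adam19 had 151 CPM in muscle and 9.12 CPM in epithelium as means, and St14 had 3.31 and 251 CPM. With 2 populations and 3 libraries each, such likeness mostly reflects a similar difference between the groups.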

How the data were processed

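RNA was measured in 3 muscle and 3 epithelium libraries made with SMART-Seq v4 and Nextera XT, per the labels' protocols, which mark neither strand nor molecule, so intervals and floors cover counting error only. The authors deposited whole-number counts per gene, tested here as deposited. The submitters' processing notes name Trim Galore, Bowtie2, Cufflinks, DESeq and mm10, without versions or roles; the counting program and annotation are not given in the sources used here. Between 73.8% and 79.6% of counts from 1 to 19 were even. Single counts may thus not be independent events, and the exact intervals may be too narrow. Every row named a gene.

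In R 4.3.3, genes were kept by filterByExpr (19375 of 23478), scaled by TMM and tested with edgeR 4.0.16 (glmQLFit, robust, and glmQLFTest, no covariate; Benjamini-Hochberg over all tested genes, threshold 0.05). SE came from the test statistic. An exact permutation test of 3 against 3 cannot go below 0.1 and was not used. The tests were run on simulated data with known changes. The EMT genes and the gene lists were chosen with earlier results of these data known, so no p was adjusted over a list and no list test was run. Genes named from a list are up to 3 per direction with the largest change among those that passed without overlap and with a mean log2 CPM not under 2, with Cdh1, Vim and Epcam always; genes given without passing were picked after their values were seen. Profile distances used log2 CPM with a prior count of 2 and genes whose mean log2 CPM was not under 4. Members listed as Patj, Adgre1 and Mymk were read as Inadl, Emr1 and Tmem8c through RefSeq synonyms; Ovol3 was not analysed here. Positions and lengths come from GENCODE M21 (GRCm38) and promoters from RefSeq (GRCm38.p6). Alternatives were DESeq2 1.42.0, limma-voom 3.58.1, other scalings and filters, the header identifier, a replicate block and leaving out each library.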

Additional observations from a re-analysis of the deposited data

How the results depend on the processing

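All 10 EMT factors kept the sign of their difference in all 14 alternative fits, and Snai1, Snai2, Zeb2, Ovol1, Ovol2 and Grhl2 passed in each. Zeb1 passed in 12, Prrx1 in 9, Twist2 in 3 and Twist1 in 1. Prrx1 was at 2.81 and did not pass when libraries were scaled by their totals only (adjusted p = 0.059). Twist1 passed with DESeq2 (2.99), and Twist2 with limma-voom (1.98) and without both replicates numbered 2, which carry the other header identifier (2.36). The cause was not tested. When a library was left out, log2 fold changes lay between 3.47 and 4.92 for Zeb1, 2.74 and 4.41 for Prrx1 and 0.66 and 2.27 for Twist2. The mesenchymal factors higher in muscle then numbered between 3 and 6, the 3 without epithelium replicate 3, and the epithelial factors higher in epithelium always 3. The level of Twist1 in epithelium was 14.6% of its muscle mean by library totals and between 10.5% and 14.8% when a library was left out.

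The labels do not say that replicate numbers pair the libraries. Deviations from the group means of same-numbered libraries correlated at 0.59, 0.73 and -0.57 over 19375 genes, and muscle replicate 3 did not correlate best with its own number. With the replicate number as a block Zeb1 was at 4.24 and did not pass (adjusted p = 0.055), 1 bHLH or Id gene was higher in epithelium, and the genes higher in muscle numbered 1602.

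Genes higher in muscle numbered 1949 with DESeq2 and 2054 with the header identifier as a term, and genes higher in epithelium 1439 with library totals and 1582 with DESeq2. With a library left out they numbered between 570 and 1655 in muscle and between 514 and 918 in epithelium. Of all calls 61.5% were higher in muscle, 42.0% with library totals, 50.3% without muscle replicate 3 and 48.8% without epithelium replicate 3. Scaling by library totals moved the median over all tested genes, on the log2 scale, from -0.10 to -0.33, and DESeq2's size factors to -0.20, so small differences such as those of the co-repressors have no firm sign. In the lists, limma-voom left 1 relative higher in epithelium, library totals left 1 bHLH or Id gene higher in muscle, and co-repressors higher in epithelium numbered 3 with library totals and 2 with DESeq2 and with limma-voom. DESeq2 called 1 gene of protein stability higher in muscle. With a library left out, relatives numbered between 1 and 4 in muscle and 1 and 2 in epithelium, bHLH and Id genes between 0 and 2 in both directions, co-repressors in epithelium between 0 and 2, and TGF-beta genes between 5 and 9 in muscle and 0 and 1 in epithelium. Few counts stood behind the levels of Ovol2 and Snai3 in muscle and of Twist1 in epithelium, and the part of depth in this was not tested.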
